A study of Mus musculus with 6 samples.

Results

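The genes described here encode the 4 INK4 inhibitors of cyclin-dependent kinases, Cdkn2a, Cdkn2b, Cdkn2c and Cdkn2d, together with Cdkn1b, which encodes p27KIP1. They were chosen by symbol, as 5 of the 55341 genes in the count tables, and all 5 passed the filter on low counts that kept 16729 genes for testing. The RNA came from cerebellar granule neurons (CGNs) of CD1-IGS mice, isolated as granule neuron precursors from pups of both sexes at P6 to P8 and matured in culture. Both groups received AraC, which blocks the division of non-neuronal cells. The control group, of 3 libraries, received the solvent DMSO at DIV3 (day in vitro 3), and the other group, of 3 libraries, received GSK-126, an inhibitor of the H3K27 methyltransferase EZH2, at the same day. RNA was collected at DIV5 according to the study's methods, while the labels give only DIV3 and name the tissue as cerebellum. The dose for this addition was not given in the sources used here. Each culture replicate was made from cerebella pooled over litters, so a library stands for a pool of animals and not for 1 animal.

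INK4 proteins bind the kinases CDK4 and CDK6 and keep D-type cyclins from activating them, which holds the retinoblastoma protein in its repressive form. p27KIP1 belongs to the CIP/KIP family, which binds assembled cyclin-kinase complexes, mainly those of CDK2, and it accumulates in granule neuron precursors as they leave the cell cycle. The locus that holds Cdkn2a and Cdkn2b is a known target of Polycomb repression, in which EZH2 deposits H3K27me3 over silent genes. Cdkn2a encodes p16INK4a and, from another start and another reading frame, ARF, which binds MDM2 and so stabilizes p53. Cdkn2b encodes p15INK4b, Cdkn2c encodes p18INK4c and Cdkn2d encodes p19INK4d, which is known from postmitotic neurons.

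In the GRCm38 annotation of GENCODE M21, Cdkn2a (ENSMUSG00000044303.6) lies on the minus strand at chr4:89274471-89294653 and Cdkn2b (ENSMUSG00000073802.5) on the same strand at chr4:89306299-89311039, with a gap of 11.6 kb between them. The 2 starts of Cdkn2a, for ARF and for p16INK4a, lie 12.5 kb apart. The 2 transcripts have first exons of their own, of 320 and 207 bases, and share exon 2, at chr4:89276645-89276985, and most of exon 3. The tables give 1 count per gene, so the reads of p16INK4a and of ARF could not be told apart. Cdkn2c (ENSMUSG00000028551.14) lies elsewhere on the chromosome, at chr4:109660876-109667189, Cdkn2d (ENSMUSG00000096472.2) at chr9:21288410-21291407, both on the minus strand, and Cdkn1b (ENSMUSG00000003031.14) on the plus strand at chr6:134920401-134925513. No exon of the 5 genes overlaps an exon of another gene.

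The sequences before the starts of Cdkn2a, Cdkn2b and Cdkn1b are shown because they hold no annotated exon of their own gene. Those before the starts of Cdkn2c and Cdkn2d run into such an exon and are not printed. The printed sequences are from RefSeq (GRCm38.p6), in 5′ to 3′ direction on the strand of the gene, up to the last base before the annotated start. Capitals mark GC boxes (GGGCGG, searched on both strands). The ARF sequence is chr4:89294654-89294869, that of p16INK4a is chr4:89282193-89282442, that of Cdkn2b is chr4:89311040-89311282, all on the minus strand, and that of Cdkn1b is chr6:134920151-134920400 on the plus strand.
Cdkn2a, ARF start: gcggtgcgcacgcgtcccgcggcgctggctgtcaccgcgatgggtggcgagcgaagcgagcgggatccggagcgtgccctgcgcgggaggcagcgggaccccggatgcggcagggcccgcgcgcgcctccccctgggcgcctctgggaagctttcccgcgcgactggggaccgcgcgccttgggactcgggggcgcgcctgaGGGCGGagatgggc
Cdkn2a, p16INK4a start: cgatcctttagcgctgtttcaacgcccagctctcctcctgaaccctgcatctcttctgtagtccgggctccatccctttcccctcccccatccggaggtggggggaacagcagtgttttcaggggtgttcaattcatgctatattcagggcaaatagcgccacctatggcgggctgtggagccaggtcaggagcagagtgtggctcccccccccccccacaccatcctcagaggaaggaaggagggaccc
Cdkn2b start: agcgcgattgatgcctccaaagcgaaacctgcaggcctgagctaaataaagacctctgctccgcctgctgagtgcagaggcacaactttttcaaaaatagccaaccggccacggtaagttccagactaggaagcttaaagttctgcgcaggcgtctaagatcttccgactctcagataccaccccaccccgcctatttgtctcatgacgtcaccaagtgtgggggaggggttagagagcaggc
Cdkn1b start: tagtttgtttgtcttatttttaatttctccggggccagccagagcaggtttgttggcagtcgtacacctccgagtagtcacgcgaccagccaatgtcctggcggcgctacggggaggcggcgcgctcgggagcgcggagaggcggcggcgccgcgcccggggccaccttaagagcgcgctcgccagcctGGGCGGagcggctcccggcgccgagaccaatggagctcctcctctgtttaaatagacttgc
Composition was counted over the 250 bases before each RefSeq start, which for ARF and Cdkn2b also take in bases that GENCODE puts after the start and that are not printed. The window before ARF had 78.4% GC and 40 CpG dinucleotides, whereas that before p16INK4a had 60% GC and 7 CpG, although both serve the same gene. The window before Cdkn2b had 53.6% GC and 12 CpG, and that before Cdkn1b 64.4% GC and 28 CpG. The windows not printed had 42.8% and 77.2% GC before the starts of Cdkn2c, with 0 and 3 GC boxes, and 63.6% GC before Cdkn2d, with 3 GC boxes. Over all 32851 windows of this length the medians were 52.4% GC and 6 CpG. A GC box was in 32.74% of all windows. Among the genes with a printed sequence, it occurred at 2 places before ARF, at 1 before Cdkn1b and nowhere in the windows of p16INK4a and Cdkn2b. CCAAT, which 33.85% of all windows hold on either strand, occurred at 2 places before Cdkn1b, at 1 before Cdkn2d and at none in the windows of the other members. The letters TTTGGCGC, an E2F motif, and TGTTTAC, a forkhead motif, were in none of the windows of the 5 genes and in 0.417% and 3.166% of all windows.

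Counts on genes ranged from 7407189 to 13092763 per library, and the members together took between 0.0237% and 0.0279% of them. Replicate 2 of both groups stood apart from the other libraries on the main principal component, which held 48.0% of the variance, and libraries with the same replicate number deviated together from their group means. The 3 pairs of libraries with the same number were therefore kept as a block in the fit, and values are also given per pair. Values are CPM, the counts of a gene scaled to a common library size with TMM factors. With the block, edgeR called 561 genes higher with GSK-126, 3.35% of those tested, and 851 lower, 5.09%, at a Benjamini-Hochberg adjusted p under 0.05. Scaling by total counts changed that split to 714 higher and 707 lower. Without the block edgeR called 0% of the genes, where 296 genes were higher and 369 lower by an unadjusted p under 0.05, while DESeq2 without the block called 20 higher and 1 lower.

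Of the 5 members, 2 were called higher with the block, Cdkn2a and Cdkn2b, and 0 were called lower, beside the 3.35% and 5.09% of all genes. By an unadjusted p under 0.05 in edgeR, 3 were higher and 1 was lower, beside 1578 and 2017 of the 16729 tested genes. DESeq2 with the block called 1 higher and 0 lower, beside 369 and 618 of the 12837 genes with an adjusted p. Neither Cdkn2a nor Cdkn2b was called without the block. Cdkn2c was higher and Cdkn1b lower in all 3 pairs, without passing the adjusted threshold, and Cdkn2d had no common direction. Being higher in all 3 pairs, as Cdkn2a, Cdkn2b and Cdkn2c were, applied to 19.5% of the tested genes, and being lower in all 3, as Cdkn1b was, to 22.8%.

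**Figure D1:**
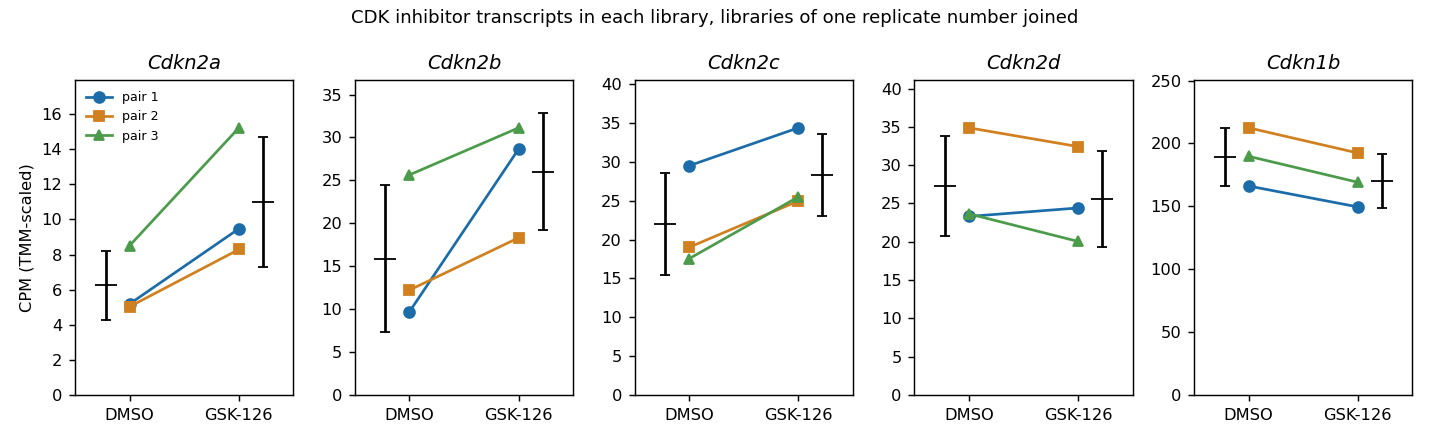
CPM (TMM-scaled, linear axes from 0) of each of the 5 genes in the 6 libraries, with lines joining the libraries of a replicate number and black bars giving the mean ± SD of a group (n = 3). The lines of Cdkn2a, Cdkn2b and Cdkn2c slope up and those of Cdkn1b slope down in each of 3 pairs, while the ranges of the groups overlap in every panel.

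Cdkn2a was the least abundant member. With DMSO it had 45, 54 and 98 counts in replicates 1, 2 and 3, or 5.19, 5.03 and 8.52 CPM, and with GSK-126 it had 125, 77 and 114 counts, or 9.47, 8.29 and 15.2 CPM. Replicate 3 was the highest library of each group, and DMSO replicate 3 lay just above GSK-126 replicate 2, so the groups overlapped. The means were 6.25 ± 1.97 CPM in the DMSO group and 10.998 ± 3.71 CPM in the GSK-126 group (SD, n = 3). Cdkn2a rose within each pair by a similar factor, 1.83, 1.65 and 1.79. With 45 to 125 counts per library, this closeness over 3 pairs does not measure the precision of the change. The fitted log2 fold change was 0.81 (SE 0.20, 95% interval 0.38 to 1.24, adjusted p = 0.0154, edgeR), a 1.75-fold difference, and 98.5% of the tested genes had a smaller log2 fold change. Without the block the log2 fold change was 0.80 with an adjusted p of 0.953, and DESeq2 with the block gave an adjusted p of 0.0676. The call was also lost without pair 1 (adjusted p = 0.0505) and without pair 3 (adjusted p = 0.091, edgeR), with log2 fold changes of 0.80 and 0.79.

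Cdkn2b had 84, 131 and 295 counts with DMSO, or 9.69, 12.2 and 25.6 CPM in replicates 1, 2 and 3. With GSK-126 it had 378, 170 and 233 counts, or 28.7, 18.3 and 31.1 CPM. DMSO replicate 3 was high, above GSK-126 replicate 2, and so the groups overlapped here too. The means were 15.8 ± 8.57 CPM and 26.03 ± 6.80 CPM (SD, n = 3). Unlike those of Cdkn2a, the factors within pairs were uneven, at 2.96, 1.499 and 1.21. The log2 fold change was 0.78 (SE 0.19, 95% interval 0.39 to 1.17, adjusted p = 0.0111, edgeR), a 1.71-fold rise, with 98.3% of the tested genes below it. DESeq2 with the block gave an adjusted p of 0.0169, and edgeR without the block gave a log2 fold change of 0.71 with an adjusted p of 0.953. Pair 1 carried much of the size, since the log2 fold change was 0.43 (adjusted p = 0.183, edgeR) without that pair, against 0.87 without pair 2 and 1.07 without pair 3.

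Cdkn2c, whose loss is known to favour medulloblastoma in mice with reduced Ptch1, had 29.5, 19.02 and 17.6 CPM in the DMSO libraries and 34.4, 24.99 and 25.5 CPM in the GSK-126 libraries. Replicate 1 was the highest in both groups, and DMSO replicate 1 exceeded 2 of the GSK-126 libraries. The means were 22.04 ± 6.53 CPM and 28.3 ± 5.30 CPM (SD, n = 3), and the factors within pairs were 1.17, 1.31 and 1.45. The log2 fold change was 0.38 (SE 0.13, 95% interval 0.10 to 0.65, unadjusted p = 0.00986 and adjusted p = 0.0882, edgeR), which did not pass the threshold.

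Cdkn2d had 23.3, 34.9 and 23.6 CPM in the DMSO libraries and 24.4, 32.4 and 20.04 CPM in the GSK-126 libraries. Replicate 2 was the highest of each group, and the groups lay almost wholly over each other, with means of 27.3 ± 6.58 CPM and 25.6 ± 6.28 CPM (SD, n = 3). The log2 fold change was -0.089 (SE 0.13, adjusted p = 0.751, edgeR), and its 95% interval, from -0.36 to 0.18, leaves room for a change of either sign.

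Cdkn1b was the most abundant member, with 166, 212 and 190 CPM in the DMSO libraries and 149, 192 and 169 CPM in the GSK-126 libraries. It was lower with GSK-126 in each pair by nearly the same amount, the log2 ratios being -0.15, -0.14 and -0.17 (SD 0.012 over the 3 pairs), but the pairs differed more than the groups did. Over 3 pairs such closeness does not measure the precision of the change, for which the SE of the fit is given. The means were 189 ± 23.1 CPM and 170 ± 21.5 CPM (SD, n = 3). The log2 fold change was -0.15 (SE 0.073, 95% interval -0.31 to -0.0020, unadjusted p = 0.0473 and adjusted p = 0.226, edgeR), so a fall of about 10.1% did not pass the threshold over all genes.

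**Figure D2:**
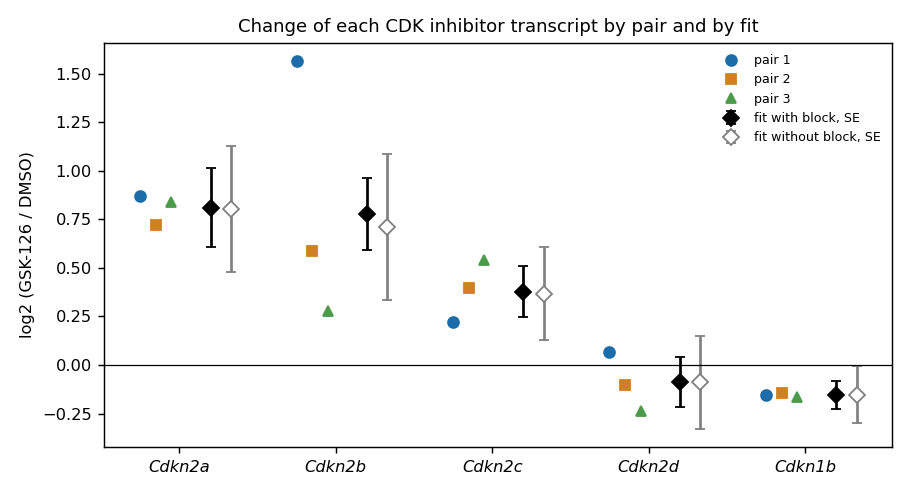
Log2 ratio of GSK-126 to DMSO for each gene, with coloured points for the 3 pairs, a black diamond for the fit with the block and an open diamond for the fit without it (bars, SE). The pairs of Cdkn2a and Cdkn1b lie close together, while those of Cdkn2b run from 0.28 to 1.56, and the fits with and without the block differ in spread more than in size.

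Exact permutation tests over the 6 libraries, two-sided and without the pairing, gave p = 0.2 for Cdkn2a and Cdkn2b, 0.3 for Cdkn2c, 0.7 for Cdkn2d and 0.5 for Cdkn1b, where 3 against 3 libraries allow no p below 0.1. Whether the members differed from each other in their response was not tested.

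Levels of different genes were compared per length, as CPM per kb of exon. These levels depend on which transcripts are made, which 1 count per gene does not show. Of the 2686 exon bases of Cdkn2c, 1580 belong to exon 1 of a single transcript. In Cdkn1b, an exon of the longest transcript spans an intron of the other transcripts. The orders below therefore hold for the length of all exons. With DMSO the order was Cdkn1b at 41.6 ± 5.08, Cdkn2d at 17.3 ± 4.18, Cdkn2b at 11.4 ± 6.17, Cdkn2c at 8.20 ± 2.43 and Cdkn2a at 5.33 ± 1.68 CPM per kb (SD, n = 3). Cdkn1b was the highest in 6 of 6 libraries, Cdkn2d was above Cdkn2c in 6 of 6, and Cdkn2b was above Cdkn2a in 6 of 6. Among neighbours in the order, Cdkn2d and Cdkn2b did not separate, as Cdkn2b was the higher in 3 of 6 libraries, of which 2 were GSK-126 libraries. Cdkn2a was above Cdkn2c in 2 of 6. With GSK-126 the levels were 37.4 ± 4.72 for Cdkn1b, 18.7 ± 4.89 for Cdkn2b, 16.3 ± 3.99 for Cdkn2d, 10.5 ± 1.97 for Cdkn2c and 9.38 ± 3.17 CPM per kb for Cdkn2a (SD, n = 3), so Cdkn2b and Cdkn2d changed places in the means. Among all tested genes, the level per kb of Cdkn1b was at the 92.8th percentile and that of Cdkn2a at the 55.4th.

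Summed over the 4 INK4 genes, the level per length was 37.2, 42.3 and 47.3 CPM per kb with DMSO and 57.0, 50.1 and 57.6 CPM per kb with GSK-126. The ratio of Cdkn1b to that sum was 0.981, 1.10 and 0.882 with DMSO and 0.576, 0.843 and 0.645 with GSK-126. The libraries of the groups did not overlap in either quantity, whereas they overlapped for each of the 5 genes alone. How often sums or ratios of other genes separate in this way was not counted. Both quantities also depend on the exon lengths used. Cdkn1b made up 49.6% of the level of the 5 genes with DMSO and 40.5% with GSK-126, while Cdkn2b went from 13.4% to 20.3% and Cdkn2a from 6.34% to 10.1%. These sums and shares are descriptions and were not tested.

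**Figure D3:**
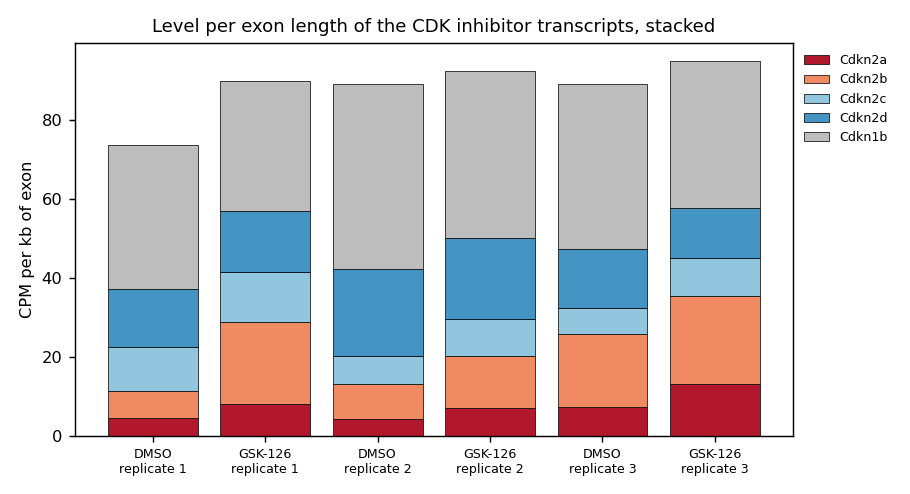
Stacked level of the 5 genes in CPM per kb of exon, 1 bar per library, with the DMSO and GSK-126 libraries of a replicate number side by side. Cdkn1b is the largest segment in 6 of 6 libraries, and the 4 INK4 segments together reach 37.2 to 47.3 with DMSO and 50.1 to 57.6 with GSK-126.

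Within 250 kb of Cdkn2a, the annotation lists 13 other genes, of which only Cdkn2b and Mtap had enough counts to be tested. Mtap encodes an enzyme of methionine salvage. It averaged 24.9 CPM in the DMSO libraries and 30.5 CPM in the others, and its log2 fold change of 0.31 (SE 0.13, adjusted p = 0.173, edgeR) did not pass the threshold. The lincRNA Gm12606, which begins 1.07 kb beyond the end of Cdkn2a, had 0 counts in all 6 libraries. Gm12609 and Gm12610, on the other side of Cdkn2b, had 6 and 5 counts in all, none of them in a DMSO library, too few to test.

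**Figure D4:**
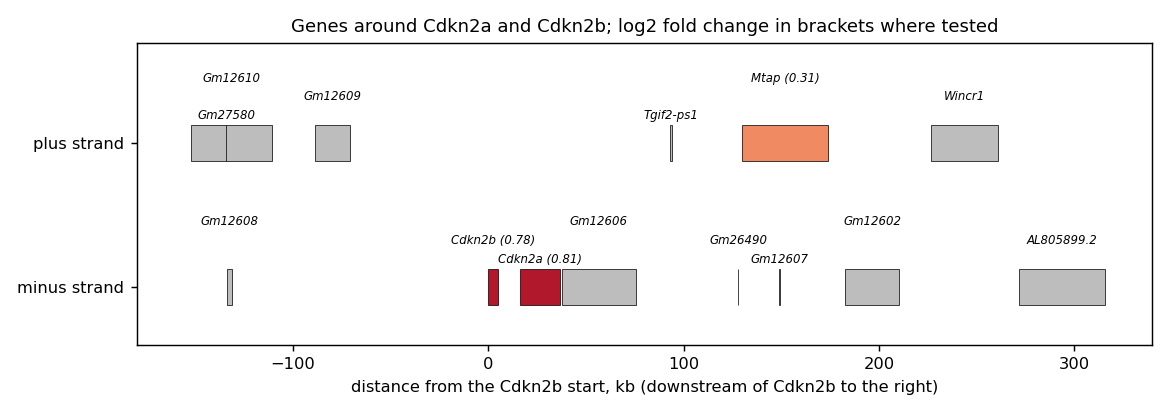
Map of the genes around Cdkn2a and Cdkn2b by distance in kb from the start of Cdkn2b, to scale, with the strands in rows and the log2 fold change in brackets for tested genes (dark red, adjusted p under 0.05 with the block; orange, not past it; grey, not tested). Cdkn2a (0.81) and Cdkn2b (0.78) lie next to each other, and Mtap (0.31) is the only other gene tested in the map.

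The kinases and cyclins that these inhibitors act on were read as lists. Of the 5 genes for the cyclin D kinases that INK4 proteins bind, 1 was called higher and 0 lower, with a median log2 fold change of 0.22 against -0.0056 over all tested genes. Before adjustment, 3 were higher and 0 lower by p under 0.05, and Cdk4 stood just outside the threshold at 0.24 (adjusted p = 0.0504, edgeR). The gene called was Ccnd2, encoding cyclin D2, with 253 ± 110 CPM and 330.0 ± 113 CPM (SD, n = 3) and a log2 fold change of 0.41 (SE 0.080, adjusted p = 0.00222, edgeR). Of the genes for the CDK2 kinase and its cyclins E and A, which p27KIP1 binds, 4 of 5 were tested and 0 were called by edgeR or by DESeq2 with the block (1 at an unadjusted p under 0.05), and Cdk2 itself had a log2 fold change of 0.39 (adjusted p = 0.122). Of the other CIP/KIP inhibitors, Cdkn1a, encoding p21, was called higher at 0.31 (SE 0.090, adjusted p = 0.0405), with log2 ratios of 0.39, 0.54 and 0.0038 in the pairs, a call that DESeq2 with the block did not make, and Cdkn1c, encoding p57, was not called, at 0.032 (adjusted p = 0.919).

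Downstream of the kinases, 0 of the 13 genes of the RB family and the E2F factors were called by edgeR or by DESeq2 with the block, and 2 were lower at an unadjusted p under 0.05. The one with the smallest p was Tfdp2, a partner of E2F proteins, at -0.37 (adjusted p = 0.0568). Of 20 genes of proliferation, 1 was called higher, Pcna, the sliding clamp of DNA polymerase, at 0.36 (SE 0.090, adjusted p = 0.0139), and the median over the list was 0.14. In direction 18 were higher and 2 lower, and 3 were higher and 0 lower by an unadjusted p under 0.05 (edgeR). Of 9 genes that degrade p27KIP1, 1 was called lower, Rnf123, a subunit of the ligase that removes p27KIP1 in the cytoplasm, at -0.48 (SE 0.084, adjusted p = 0.000906). Of 5 genes of the ARF and p53 axis, Npm1, encoding the nucleolar protein that holds ARF, was called higher at 0.30 (adjusted p = 0.0102) and Mdm4, an inhibitor of p53, lower at -0.25 (adjusted p = 0.0477, against 0.101 in DESeq2 with the block).

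Of the regulators of the INK4 and p27 genes, 0 of 16 Polycomb genes were called by edgeR or by DESeq2 with the block (before adjustment, 1 was higher and 2 were lower by p under 0.05), and Bmi1, a known repressor of Cdkn2a, had the smallest p, at 0.24 (adjusted p = 0.15). Ezh2, the target of GSK-126, averaged 36.5 ± 6.97 CPM under DMSO and 33.6 ± 7.82 CPM under GSK-126 (SD, n = 3), with a log2 fold change of -0.13 (adjusted p = 0.563). The inhibitor acts on the enzyme, so the RNA level of Ezh2 does not show whether it worked. Of 14 genes for activators of the INK4 or p27 genes, 13 were tested and 3 were called lower by edgeR with the block. These were Foxo6 at -1.23 (adjusted p = 0.0332), which was higher with GSK-126 in 1 of 3 pairs at levels of 1.74 to 9.04 CPM, Ets2 at -0.55 (adjusted p = 0.0331) and Foxo3 at -0.24 (adjusted p = 0.0446). DESeq2 with the block called neither Ets2 (adjusted p = 0.508) nor Foxo3 (adjusted p = 0.0577) and gave no adjusted p for Foxo6. FOXO factors are known to activate Cdkn1b, and ETS2 is known to activate the p16INK4a transcript. The gene not tested, Men1, had 0 counts in all 6 libraries. The reason was not found, so these counts do not show whether Men1 was expressed. Without the block neither edgeR nor DESeq2 called a gene of these 9 lists.

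**Figure D5:**
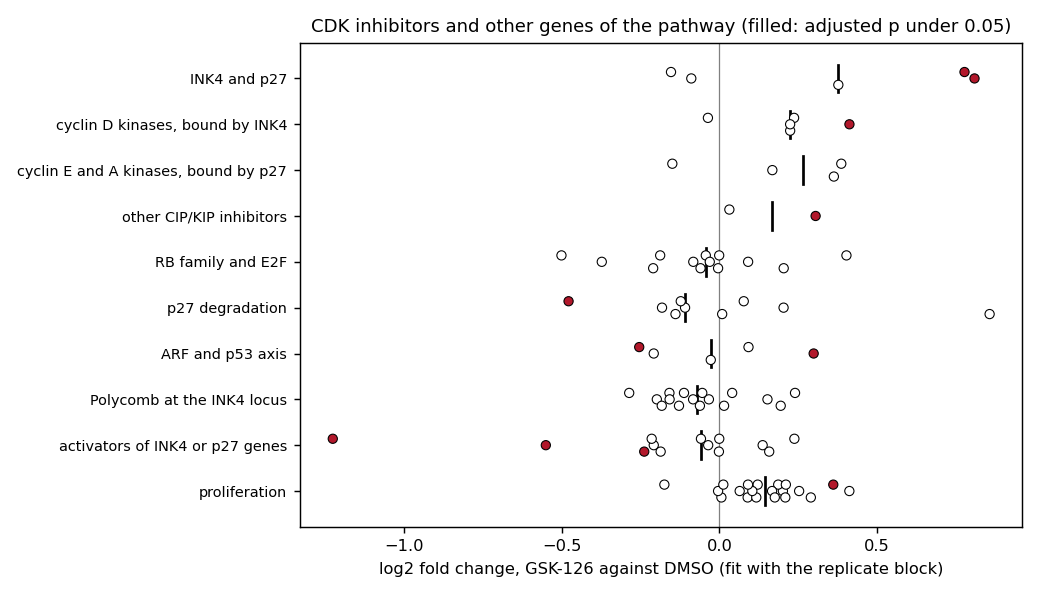
Log2 fold change of GSK-126 against DMSO in the fit with the block, 1 point per tested gene, for the 5 inhibitors and 9 lists of genes of their pathway, with filled points for an adjusted p under 0.05 and a bar at the median of each row. Filled points are 2 of 5 in the row of inhibitors and at most 3 in any list, and the lists of Polycomb, RB and E2F genes hold none.

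Markers of the cell types in these cultures moved as well. Of 12 granule neuron markers, 8 were called lower with GSK-126 and 0 higher, with a median log2 fold change of -0.43. Among them were Slc17a7, the vesicular glutamate transporter VGLUT1, at -1.95 (adjusted p = 1.28e-10), Gabra6, a GABA receptor subunit of mature granule neurons, at -1.19 (adjusted p = 1.53e-07), and Etv1, a transcription factor of maturing CGNs, at -1.17 (adjusted p = 1.53e-07, edgeR with the block). The summed CPM of the list ran from 4584 to 7402 with DMSO and from 3621 to 5702 with GSK-126, and was 0.790, 0.770 and 0.779 times the DMSO value in the pairs. Neurod1 and Zic1, which mark the lineage, were at 366 CPM or more and 1085 CPM or more in every library, and both were among the markers called lower, at -0.47 (adjusted p = 0.000111) and -0.31 (adjusted p = 0.00521, edgeR with the block). Cdkn1b stood at 0.8998, 0.906 and 0.891 times its DMSO value in the same pairs. In bulk RNA, fewer cells of a type and less RNA per cell cannot be told apart.

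The fibroblast list summed to 8970 to 12823 CPM with DMSO and 10130 to 14278 CPM with GSK-126. That exceeded the granule neuron sum in each library, but the sums were not scaled by length and do not compare amounts of cells. Most of the fibroblast sum came from Col1a1, Col3a1, Col1a2 and Fn1, at means of 2970, 2482, 2242 and 2201 CPM with DMSO. Of its 10 genes, 3 were called higher, Pdgfrb at 0.36, Fn1 at 0.29 and Col1a2 at 0.22. In direction 9 were higher and 1 lower, Col6a3 at -0.26, not called. The sum of the list was 1.25, 1.05 and 1.11 times the DMSO value in pairs 1, 2 and 3. Of 12 microglial markers, 5 were called higher, by edgeR and by DESeq2 alike in number, among them C1qa at 0.48 and C1qb at 0.43, with sums of 438 to 890 and 613 to 1092 CPM and factors of 1.23, 1.40 and 1.20. Of 8 mural cell markers, 7 were tested and 2 called higher, Tagln at 0.52 and Acta2 at 0.43. In direction 5 were higher and 2 lower, Myh11 at -0.40 and Abcc9 at -0.55, neither called, and the list median was 0.085. The list had sums of 684 to 1035 and 959 to 1270 CPM and factors of 1.46, 1.30 and 1.23. Most of the sum came from Acta2 and Tagln, at means of 401 and 273 CPM with DMSO. Over the same pairs Cdkn2a differed by factors of 1.83, 1.65 and 1.79 and Cdkn2b by 2.96, 1.499 and 1.21. The part of these cells in the levels of Cdkn2a and Cdkn2b was not tested.

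Of 10 astroglial markers, 1 was called higher, S100b at 0.56, and 0 lower. In direction 5 were higher and 5 lower, with a median of 0.014, and 3 were higher and 2 lower by an unadjusted p under 0.05 (edgeR). The sum of 2871 to 8449 CPM under DMSO and 2732 to 8757 CPM under GSK-126 followed the pairs. Of 10 oligodendrocyte lineage markers, Mbp was called higher at 0.28 by edgeR (adjusted p = 0.0408) and not by DESeq2 with the block (adjusted p = 0.0555). Of 10 endothelial markers, 9 were tested and 0 called by edgeR or by DESeq2 with the block (1 at an unadjusted p under 0.05), with Flt1 at 0.67 (adjusted p = 0.116). Of 8 markers of granule neuron precursors, 6 were tested, with Barhl1 higher at 0.33 and Ptch1, the Sonic hedgehog receptor, lower at -0.46, of which DESeq2 with the block did not call Barhl1 (adjusted p = 0.111). Of 10 markers of Purkinje cells and interneurons, 8 were tested and 3 called lower, Slc32a1 at -0.72, Gad2 at -0.52 and Gad1 at -0.32, of which DESeq2 with the block did not call Gad2 (adjusted p = 0.103). No marker of these lists was at 0 in all 6 libraries.

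The genes whose log2 CPM followed each member most closely over the 6 libraries were found by Pearson's r among 15388 genes, as a description, since the libraries share pairs and treatment. Cdkn2a was followed by Arhgap9 and Crim1, a membrane protein that binds bone morphogenetic proteins (r = 0.993 for each), and by Tpm4, a tropomyosin (r = 0.991). Cdkn2b was followed by Pmepa1, an inhibitor of TGF-beta signalling (r = 0.997), Cd248, a surface protein of fibroblasts and pericytes (r = 0.994), and Ace, the angiotensin-converting enzyme (r = 0.993). Cdkn2c was followed by Derl1, a protein of endoplasmic reticulum quality control, Rilpl1 and Maats1 (r = 0.994, 0.994 and 0.991). Cdkn2d was followed by Dll4, a Notch ligand, Gm3510 and Thnsl1 (r = 0.999, 0.998 and 0.998). Cdkn1b was followed by Golga7b, Elavl4, a neuronal RNA-binding protein, and Stard5 (r = 0.998, 0.997 and 0.997). With so many genes and 6 libraries high values are common, and 163 to 1225 genes passed r = 0.9 with a given member. Among the members, the levels of Cdkn2a and Cdkn2b went together (r = 0.91), those of Cdkn2d and Cdkn1b less closely (r = 0.71), and those of Cdkn2c and Cdkn1b ran in opposite directions (r = -0.86).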

How the data were processed

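RNA was poly(A)-enriched and sequenced in paired ends. The authors used Trimmomatic 0.38 for trimming, STAR 2.7.2b for alignment (GRCm38.p4) and HTSeq for counting over exons. They deposited raw counts per gene for each library. The strand setting was not given in the sources used here. Lines that name no gene, 58.7% to 60.7% of the reads listed, were left out. The 55341 symbols are exactly those of GENCODE M21, which gave identifiers, coordinates and exon lengths.

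Counts were tested in R 4.3.3 with edgeR 4.0.16 (TMM factors, filterByExpr, quasi-likelihood test, replicate number as a block, Benjamini-Hochberg adjustment over all genes tested, threshold 0.05). The fit was also run on counts simulated from these libraries with the pairs built in, which cannot show whether the block is right. Replicate numbers 1 to 3 recur in the titles of both groups. Deviations from the group means correlated across genes at 0.586, 0.663 and 0.513 within numbers and at 0.0122 or less across numbers, so the numbers pair the libraries. The biological coefficient of variation was 9.74% with the block and 24.0% without it. No library was a copy of another library of its group. The labels do not say that the replicates were separate cultures, which the study's methods do.

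Alternatives were the fit without the block, DESeq2 1.42.0, other scalings and filters, a threshold of 0.01, each pair or library left out, and exon length by the longest transcript. CPM are counts over TMM-scaled totals, and correlations used a pseudocount of 0.5 CPM. The members and the gene lists, written from general knowledge, were chosen with earlier results of these data known. From each list the genes named are the up to 3 called with the smallest p, or the 1 with the smallest p where none was called; for each member, the 3 genes most like it with a mean log2 CPM over 1 and, within 250 kb, the tested neighbours, of which only those called are named around Cdkn2d and Cdkn1b. The value of 1 gene that the rule names is not reported here. Ezh2, Neurod1, Zic1, Cdkn1c, Gm12606, Gm12609, Gm12610 and Men1 were named outside this rule, after their values were seen. So were Cdk4, Myh11, Abcc9, Col1a1, Col3a1 and Col6a3. Counting error sets the precision of Cdkn2a most, with 45 counts in its lowest library.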

Additional observations from a re-analysis of the deposited data

How the results depend on the processing

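The replicate block mattered most. With no replicate block, edgeR called 0 genes in either direction (by an unadjusted p under 0.05, 296 higher and 369 lower), also with each library left out (182 to 489 higher and 125 to 775 lower by the unadjusted p), and DESeq2 called 20 higher and 1 lower. The log2 fold changes of Cdkn2a and Cdkn2b without the pairing were 0.80 and 0.71 in edgeR and 0.81 and 0.72 in DESeq2, none past the threshold, and the block changed the call of no other member. With the block, DESeq2 called 369 higher and 618 lower and lost Cdkn2a (0.82). A threshold of 0.01 left 242 higher and 474 lower. Leaving out a pair gave 337 to 558 higher and 496 to 719 lower, the fewest without pair 2, with Cdkn2a between 0.79 and 0.85 and Cdkn2b between 0.43 and 1.07. Leaving out single libraries without the block, where a left-out library gave 0 calls, put Cdkn2a between 0.50 and 1.10 and Cdkn2b between 0.47 and 1.25. Cdkn2d ran from -0.27 to 0.13 and changed sign without the block and DMSO replicate 2 (0.13) and without the block and GSK-126 replicate 3 (0.058). Upper-quartile scaling called 727 higher and 698 lower, and the median of all genes moved from -0.0056 to 0.029. Of 85 alternative values for the members, 63 kept direction and side of the threshold, 20 lost a call and 2 reversed. The lost calls were those of Cdkn2a, in 11 of 17 alternatives, and of Cdkn2b, in 9 of 17. Cdkn2a kept its call in 6 and Cdkn2b in 8, while the other members had no call to lose. The order of the 5 levels with DMSO did not change with the length of the longest transcript. For Cdkn1b and Cdkn2b that length equals the length of all exons, and shorter transcripts were not tried, so the order could still depend on the transcripts made. The cause of these changes was not tested. Counts per library limit Cdkn2a most.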

Other observations

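Near the members outside the Cdkn2a locus, calls with the block in edgeR are given beside 3.35% of all tested genes called higher and 5.09% called lower. Within 250 kb of Cdkn2c, 3 genes were tested, Faf1 at a log2 fold change of 0.056, Rnf11 at 0.00033 and Ttc39a at 0.55, and none passed the threshold or had an unadjusted p under 0.05. Within 250 kb of Cdkn2d, 17 were tested and 2 were called lower with GSK-126: Icam5, a dendritic adhesion protein of neurons, fell from a mean of 11.4 to 6.21 CPM (log2 fold change -0.85, SE 0.21, adjusted p = 0.0115), and Pde4a, a cyclic AMP phosphodiesterase, fell from 30.1 to 21.6 CPM (log2 fold change -0.49, SE 0.13, adjusted p = 0.0254). Within 250 kb of Cdkn1b, 10 were tested and 1 was called higher, Hebp1, a heme-binding protein, which rose from 11.3 to 17.8 CPM (log2 fold change 0.69, SE 0.17, adjusted p = 0.0122). None of the 3 was called without the block.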
